A study of Danio rerio with 6 samples.

Results

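The Hox genes of the regenerating zebrafish tail fin were described from a table of 53709 gene entries. Hox entries were taken by name: hox, a cluster letter from a to d, a paralogue number, and the letter of the cluster copy, with or without a numeric suffix that marks a further entry of the same symbol. This gave 53 entries for 49 symbols in 7 clusters, of which 15 are hoxc entries and 38 belong to hoxa, hoxb and hoxd. Poly(A) RNA came from the tail fin blastema of male Danio rerio 4 days after amputation. Control fish stood in distilled water, and fish of the other group in distilled water that held nanoparticles of zinc oxide prepared with propolis extract, at 2 mg/L and called ZnO here. Each group had 3 libraries, and the labels give 5 fish per group in triplicate without saying how fish relate to libraries. No strain, age, transgene or mutation is given in the labels for either group. No library received the extract or dissolved zinc alone, so that their part and that of the particles cannot be told apart. The p-values below measure the spread between these libraries, which may be technical in part.

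Hox genes encode homeodomain transcription factors and lie in clusters, in which low paralogue numbers act towards the head and high ones towards the tail. An extra genome duplication in the ancestors of teleost fish left zebrafish with cluster copies called a and b, written as the last letter of a gene name, and the second hoxd copy has lost its Hox protein genes. Hox proteins bind DNA together with Pbx and Meis partners. In developing fins the high-numbered hoxa and hoxd genes pattern the outer skeleton, and loss of hoxa13 and hoxd13 function in zebrafish impairs pectoral fin rays. The genes hoxb13a and hoxc13a act in tail fin development in zebrafish, hoxc13a and hoxc13b are known to be active in the regenerating tail fin, and hoxc12 and hoxc13 have been tied to tail and limb regrowth in Xenopus.

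Libraries held 26624174 to 31712994 counts, and 1 count was worth 0.0316 to 0.0383 CPM, where CPM is the library-scaled count after TMM normalization. Hox entries together took 0.0421% to 0.0462% of counts in controls and 0.0493% to 0.0582% in ZnO. ZnO 1 correlated with its own group and with controls about equally over all tested entries (mean r of 0.969 and 0.967 on log CPM), whereas each other library was closer to its own group. Blastema and fin fold genes were present as the tissue label requires: msx3 stood at 80.7 ± 6.05 and 104 ± 11.0 CPM and the actinodin gene and1 at 4321 ± 911 and 5346 ± 456 CPM in controls and ZnO (SD, n = 3 each). The 10 skeletal muscle markers summed to 1.59 to 1.87 CPM in controls and 1.53 to 2.18 in ZnO, with tnni2a.4 at 0 counts in all libraries. In bulk tissue, fewer cells of a type and less RNA per cell cannot be told apart. The table gives no transcript lengths, so a higher CPM of a Hox entry than of another is a statement about counts and not about molecules.

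Of the 53 entries, 37 passed the filter on low counts and 16 did not. All 23 entries of paralogue groups 9 to 13 were tested, against 8 of 15 in groups 1 to 4 and 6 of 15 in groups 5 to 8. The tested entries comprise 11 of 12 hoxa, 7 of 19 hoxb, 12 of 15 hoxc and 7 of 7 hoxd entries. High-numbered genes also dominated the counts. Groups 9 to 13 took 90.7% ± 0.327 of all Hox counts in controls and 90.6% ± 1.26 in ZnO (SD, n = 3 each). Group 13 alone took 56.5% ± 1.55 in controls and 52.3% ± 1.62 in ZnO. Groups 1 to 4 took 7.97% ± 0.357 in controls and 7.97% ± 0.869 in ZnO, and groups 5 to 8 1.28% ± 0.0307 in controls and 1.41% ± 0.436 in ZnO.

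No Hox entry passed the threshold for ZnO against control, an adjusted p under 0.05 over all 25962 tested entries by edgeR's quasi-likelihood test, where 0.428% of tested entries passed (0.0963% higher and 0.331% lower). DESeq2 called 1 Hox entry, hoxc12b, as higher, where it called 4.67% of the entries to which it gave an adjusted p (1.65% higher). At an unadjusted edgeR p under 0.05, 12 of the 37 tested Hox entries were higher in ZnO and 0 were lower. Over all tested entries 7.72% were higher and 8.2% lower at that level. Log2 fold changes were positive for 36 of the 37, where 52% of all tested entries were positive. Their median was 0.39, beside 0.015 for all tested entries, and they ran from -0.087 for hoxd4a to 1.02 for hoxc12b. All ZnO libraries stood above all controls for 11 of the 37, beside 11.3% of all tested entries, and below them for 0, beside 11.2%. Entries of a cluster come from the same cells and libraries and are not independent, and these counts carry no test.

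Summed over all 53 entries, Hox levels were 464, 423 and 450.4 CPM in controls 1 to 3 and 491, 587 and 570.4 in ZnO 1 to 3. The groups did not overlap, and ZnO 1 stood nearest to the controls. The hoxc entries summed to 204, 199.7 and 215 CPM in the controls and to 231, 301 and 282 with ZnO, with a ratio of group means of 1.31. The other Hox entries summed to 259, 223 and 236 CPM in the controls and to 261, 286 and 289 with ZnO, with a ratio of 1.16. For both sums no ZnO library fell below a control, the second by a narrow margin between control 1 and ZnO 1. By letter, the ratio among the others was 1.13 for hoxa, 1.46 for hoxb and 1.34 for hoxd. The ratio of hoxc was thus above that of hoxa only, and the hoxb and hoxd sums overlapped between groups. Within hoxc, the first cluster copy had a ratio of 1.36 and sums that did not overlap. The second copy had a ratio of 1.18, with overlap.

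**Figure D1:**
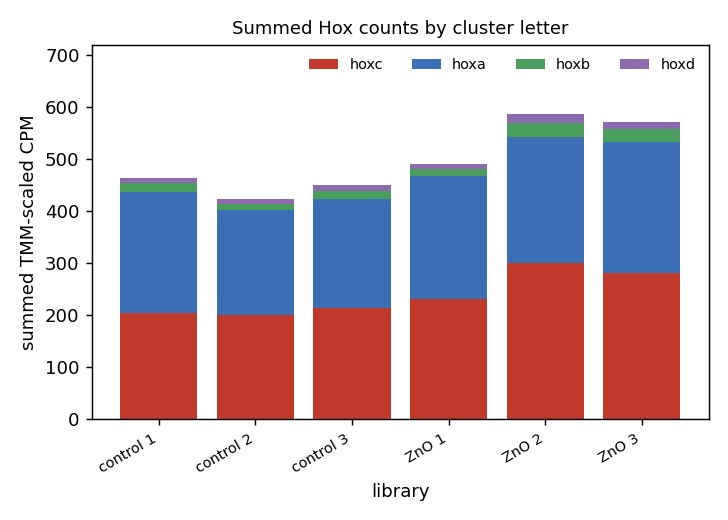
Summed TMM-scaled CPM of Hox entries in each of the 6 libraries, stacked by cluster letter. hoxc and hoxa make up most of each bar, and the bars of ZnO 2 and ZnO 3 reach 587 and 570.4 CPM while no control exceeds 464.

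Set against the others, hoxc entries had positive log2 fold changes in 12 of 12 tested, with a median of 0.46. The other clusters had 24 of 25 positive, with a median of 0.31, where 52% of all tested entries were positive. By cluster letter the medians were 0.24 for hoxa, 0.39 for hoxb and 0.41 for hoxd. At an unadjusted edgeR p under 0.05, 6 of 12 hoxc and 6 of 25 other entries were higher, beside 7.72% of all tested entries. All ZnO libraries exceeded all controls for 5 of 12 hoxc and 6 of 25 other entries, beside 11.3% of all tested entries. The share of Hox counts that fell on hoxc was 44.1, 47.2 and 47.6% in controls and 47.0, 51.2 and 49.4% in ZnO, or 46.3% ± 1.96 in controls and 49.2% ± 2.14 in ZnO (SD, n = 3 each). These shares overlapped, because ZnO 1 fell within the range of the controls. The difference between hoxc and the other clusters was not tested. Without ZnO 2 the median of the others was 0.16, with 20 of 26 positive, and that of hoxc was 0.40, with 12 of 12 positive. The medians lay closer together in fits that kept entries of low counts. They were 0.39 for hoxc and 0.33 for the others with DESeq2, and likewise 0.39 and 0.33 with no filter.

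Within hoxc, hoxc10a to hoxc13a of the first copy, called hoxca, had the largest differences in mean CPM between groups, and hoxc13a had the most counts, followed by hoxc13b of the second copy. hoxc13a, the last gene of its cluster and a gene of tail fin development, stood at 56.2, 54.2 and 55.9 CPM in controls 1 to 3 and at 63.3, 78.6 and 67.9 in ZnO 1 to 3 (log2 fold change 0.34 ± 0.11, SE; edgeR adjusted p = 0.215). All ZnO libraries were above all controls, and the controls lay within a narrow band. hoxc12a, its neighbour, was at 36.6, 39.2 and 37.9 CPM in controls 1 to 3 and at 43.2, 66.7 and 55.2 in ZnO 1 to 3 (log2 fold change 0.54 ± 0.16, SE; edgeR adjusted p = 0.167). Groups again did not overlap, and ZnO 1 was the lowest of its group. hoxc11a, of a group that patterns the sacral region and the middle limb segment in mouse, was at 17.4, 20.9 and 18.7 CPM in controls 1 to 3 and at 22.1, 36.0 and 30.3 in ZnO 1 to 3 (log2 fold change 0.63 ± 0.18, SE; edgeR adjusted p = 0.160). ZnO 2 was highest and ZnO 1 only slightly above control 2. DESeq2 gave adjusted p = 0.0568 for hoxc11a, 0.0792 for hoxc12a and 0.215 for hoxc13a.

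hoxc10a, of a group that patterns the lumbar region in mouse, stood at 14.3, 21.8 and 21.8 CPM in controls 1 to 3 and at 21.7, 27.8 and 30.4 in ZnO 1 to 3 (log2 fold change 0.47 ± 0.20, SE; edgeR adjusted p = 0.300). Control 1 was well below the other controls, and ZnO 1 fell between controls, so the groups overlapped. hoxc9a, of a group that acts in the trunk and limb in mouse, was at 9.82, 9.93 and 9.90 CPM in controls 1 to 3 and at 11.2, 13.4 and 14.3 in ZnO 1 to 3 (log2 fold change 0.39 ± 0.14, SE; edgeR adjusted p = 0.228). The controls were nearly equal and all ZnO libraries were higher. Across hoxc9a to hoxc13a, ratios of group means were 1.31, 1.38, 1.55, 1.45 and 1.26 in order of paralogue number. These ratios were highest in the middle of the series and lower at hoxc9a and hoxc13a, with standard errors that overlap between neighbours.

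The second copy, hoxcb, keeps 4 genes. hoxc12b had the lowest edgeR adjusted p of all tested Hox entries and was at 2.17, 1.198 and 1.80 CPM in controls 1 to 3 and at 3.12, 3.95 and 3.48 in ZnO 1 to 3 (log2 fold change 1.02 ± 0.26, SE; edgeR adjusted p = 0.132; DESeq2 adjusted p = 0.0301). All ZnO libraries were higher than all controls, and control 2 was the lowest of the 6. Over 14 alternatives its log2 fold change ran from 0.82 to 1.22 and its adjusted p from 0.0301 by DESeq2 to 0.289 without ZnO 3 by edgeR. hoxc13b was at 52.1, 39.3 and 54.0 CPM in controls 1 to 3 and at 48.4, 57.4 and 59.9 in ZnO 1 to 3 (log2 fold change 0.19, 95% interval -0.16 to 0.53; edgeR adjusted p = 0.593). Its groups overlapped, and control 2 stood below all other libraries. hoxc11b was at 7.00, 4.05 and 6.26 CPM in controls 1 to 3 and at 5.17, 7.63 and 9.96 in ZnO 1 to 3 (log2 fold change 0.39, 95% interval -0.26 to 1.04; edgeR adjusted p = 0.548). ZnO 3 was highest, ZnO 1 was below controls 1 and 3, and the groups overlapped. hoxc6b, not tested, had 18 counts over all libraries.

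Of the tested hoxc entries, hoxc4a, hoxc6a and hoxc8a had the fewest counts and the largest standard errors of the log2 fold change. hoxc8a was at 1.61, 1.69 and 2.31 CPM in controls 1 to 3 and at 3.67, 1.57 and 2.44 in ZnO 1 to 3 (log2 fold change 0.45, 95% interval -0.31 to 1.22; edgeR adjusted p = 0.557). hoxc6a was at 0.460, 0.458 and 0.538 CPM in controls 1 to 3 and at 1.07, 0.383 and 0.735 in ZnO 1 to 3 (log2 fold change 0.59, 95% interval -0.43 to 1.61; edgeR adjusted p = 0.566). For both, ZnO 1 was the highest library and ZnO 2 the lowest of all, whereas in hoxc11a to hoxc13a ZnO 2 was the highest library and ZnO 1 the lowest of its group. hoxc4a was at 0.591, 0.881 and 0.316 CPM in controls 1 to 3 and at 0.797, 0.498 and 1.24 in ZnO 1 to 3 (log2 fold change 0.51, 95% interval -0.61 to 1.64; edgeR adjusted p = 0.666), with groups that overlapped widely. hoxc3a, a gene of the head end of the cluster, was at 5.68, 5.71 and 4.74 CPM in controls 1 to 3 and at 6.62, 6.40 and 5.35 in ZnO 1 to 3 (log2 fold change 0.19, 95% interval -0.20 to 0.58; edgeR adjusted p = 0.648), and ZnO 3 fell among the controls. In the RefSeq annotation of another assembly, GRCz12tu, used here only for which genes lie beside each other, the span of hoxc3a runs over hoxc9a, hoxc8a, hoxc6a, hoxc5a and hoxc4a. How the authors' counting divided reads among overlapping genes is not given in the sources used here, so the counts of these entries are less certain. hoxc5a and hoxc1a were not tested, with 45 and 2 counts over all libraries.

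**Figure D2:**
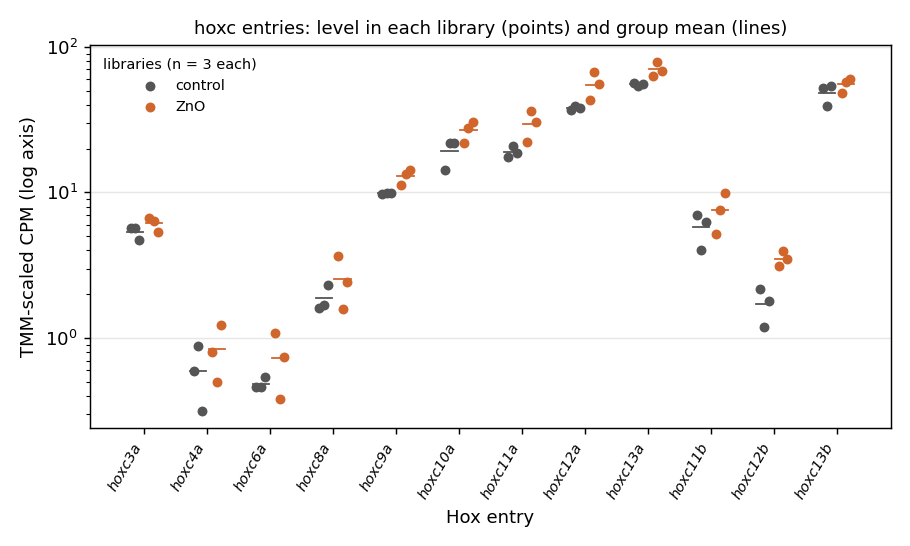
TMM-scaled CPM on a log axis for the 12 tested hoxc entries, with a point for each library (3 controls in grey, 3 ZnO in orange) and a line at each group mean. Points of the groups separate for hoxc9a, hoxc11a, hoxc12a, hoxc13a and hoxc12b and mix for the other entries.

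Among the hoxa genes, the 13th paralogues held the largest counts and their ZnO and control levels lay close together. hoxa13b was at 90.0, 87.4 and 84.3 CPM in controls 1 to 3 and at 88.4, 91.2 and 97.0 in ZnO 1 to 3 (log2 fold change 0.080, 95% interval -0.15 to 0.31; edgeR adjusted p = 0.750). The groups overlapped, and the interval was the narrowest of the 37. hoxa13a was at 68.2, 49.8 and 56.2 CPM in controls 1 to 3 and at 64.5, 66.2 and 66.1 in ZnO 1 to 3 (log2 fold change 0.18, 95% interval -0.13 to 0.48; edgeR adjusted p = 0.565). Its ZnO libraries lay close together within the wider range of the controls. hoxa9b, in the second hoxa copy, was at 10.7, 9.02 and 11.2 CPM in controls 1 to 3 and at 13.7, 14.8 and 12.2 in ZnO 1 to 3 (log2 fold change 0.39 ± 0.14, SE; edgeR adjusted p = 0.245), with all ZnO libraries above all controls. hoxa9a, its counterpart in the first copy, was at 8.08, 7.15 and 8.66 CPM in controls 1 to 3 and at 8.87, 9.81 and 8.66 in ZnO 1 to 3 (log2 fold change 0.19, 95% interval -0.14 to 0.53; edgeR adjusted p = 0.568), and the groups overlapped narrowly. Counts of hoxa9b relative to hoxa9a were 1.33, 1.26 and 1.30 in controls and 1.54, 1.50 and 1.41 in ZnO, a ratio within each library that does not depend on scaling and whose groups did not overlap. Of 10 such ratios this was the one without overlap. For levels, 11.3% of all tested entries had all ZnO libraries above all controls and 11.2% below. No such share was taken over ratios of gene pairs, and several of the 10 ratios share a gene. This 1 of 10 is therefore not read as a result. The groups overlapped for the ratios between the copies of hoxa11, hoxa13, hoxc11, hoxc12 and hoxc13, of hoxc10a, hoxc11a and hoxc12a to hoxc13a and of hoxd13a to hoxa13a. The ratio of hoxa13b to hoxa13a averaged 1.52 ± 0.219 in controls and 1.41 ± 0.0532 in ZnO (SD, n = 3 each).

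hoxa3a, of a group that acts in the pharyngeal arches, was at 23.8, 21.5 and 21.9 CPM in controls 1 to 3 and at 25.7, 26.1 and 31.7 in ZnO 1 to 3 (log2 fold change 0.31 ± 0.12, SE; edgeR adjusted p = 0.279). Each ZnO library was above each control, with ZnO 3 highest. hoxa4a was at 3.61, 3.06 and 3.13 CPM in controls 1 to 3 and at 4.54, 4.06 and 5.21 in ZnO 1 to 3 (log2 fold change 0.49 ± 0.19, SE; edgeR adjusted p = 0.256), also with no overlap. In the same RefSeq annotation the span of hoxa3a runs over hoxa5a and hoxa4a, and how reads of these genes were divided is not known. The spans of hoxb3a and hoxd3a likewise run over neighbouring genes of their clusters, hoxb6a, hoxb5a and hoxb4a in the first case and hoxd4a in the second. hoxa5a stood at 1.34 ± 0.351 and 1.39 ± 0.506 CPM (SD, n = 3 each) with a log2 fold change of 0.065. hoxa11b and hoxa11a had log2 fold changes of 0.37 and 0.31, the first with all ZnO libraries above all controls, and hoxa10b had 0.24. hoxa2b, which specifies the second pharyngeal arch in zebrafish, had 0.020 with an interval from -0.79 to 0.83.

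hoxa1a was the Hox entry that stood lower in ZnO without overlap, and it did not pass the filter. It had 17, 9 and 16 counts in controls and 5, 3 and 4 in ZnO, or 0.558, 0.317 and 0.506 CPM and 0.173, 0.115 and 0.134 CPM. Each ZnO library was below each control, at levels of a few counts. With no filter on low counts its log2 fold change was -1.68 (edgeR adjusted p = 0.248). hoxa1a was singled out after its values were seen.

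Among the hoxb genes, hoxb10a had the largest counts and was at 7.91, 5.42 and 6.39 CPM in controls 1 to 3 and at 6.59, 11.7 and 13.4 in ZnO 1 to 3 (log2 fold change 0.68 ± 0.27, SE; edgeR adjusted p = 0.275). ZnO 2 and ZnO 3 were above all controls, and ZnO 1 lay among the controls. hoxb8a was at 0.690, 0.810 and 0.664 CPM in controls 1 to 3 and at 1.11, 1.65 and 1.17 in ZnO 1 to 3 (log2 fold change 0.85 ± 0.31, SE; edgeR adjusted p = 0.244), with all ZnO libraries above all controls at 21 to 43 counts a library. hoxb13a, a gene of tail fin development, was at 1.87, 1.02 and 1.49 CPM in controls 1 to 3 and at 0.624, 3.14 and 3.41 in ZnO 1 to 3 (log2 fold change 0.71, 95% interval -0.60 to 2.02; edgeR adjusted p = 0.595). It was highest in ZnO 2 and ZnO 3 and lowest in ZnO 1, below every control. hoxb9a had a log2 fold change of 0.24 (95% interval -0.32 to 0.80), hoxb7a 0.20 (95% interval -0.56 to 0.96), hoxb3a 0.39 (95% interval -0.49 to 1.27) and hoxb6a 0.12 (95% interval -1.23 to 1.47), and of these hoxb7a had groups that did not overlap. hoxb2a, hoxb4a and hoxb5a had 3, 29 and 9 counts in all, and hoxb1a had 0. The second hoxb copy had few counts at this depth. Its 8 entries, hoxb1b, hoxb5b, hoxb6b and hoxb8b with a suffixed entry each, had 0 to 14 counts over all 6 libraries. No other Hox symbol had a suffixed entry. How reads that match both entries of a symbol were counted is not given in the sources used here. Low counts of these entries therefore need not mean low expression. For hoxb1a and hoxb6b, 0 counts allow a level of up to 0.0171 CPM over all libraries, taking 3 counts as the limit and covering counting error only.

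The high-numbered hoxd genes pattern the outer skeleton of paired fins and limbs, and all 7 hoxd entries were tested. hoxd10a was at 1.45, 1.06 and 2.40 CPM in controls 1 to 3 and at 2.11, 3.72 and 3.07 in ZnO 1 to 3 (log2 fold change 0.85 ± 0.35, SE; edgeR adjusted p = 0.286). ZnO 2 and ZnO 3 exceeded all controls, and ZnO 1 lay below control 3. hoxd12a was at 2.10, 2.04 and 2.12 CPM in controls 1 to 3 and at 1.32, 3.64 and 3.38 in ZnO 1 to 3 (log2 fold change 0.41, 95% interval -0.41 to 1.23; edgeR adjusted p = 0.633). Here the controls were nearly equal, ZnO 2 and ZnO 3 were above them and ZnO 1 below, a pattern shared by hoxd13a at 1.18, 1.23 and 1.42 CPM in controls 1 to 3 and at 0.624, 2.38 and 1.60 in ZnO 1 to 3 (log2 fold change 0.26, 95% interval -0.76 to 1.27; edgeR adjusted p = 0.830). The log2 fold change was 0.45 (95% interval -0.25 to 1.15) for hoxd11a, 0.18 (95% interval -0.39 to 0.76) for hoxd9a and 0.42 (95% interval -0.38 to 1.21) for hoxd3a. Without ZnO 2 it was 0.16 for hoxd11a, and without ZnO 1 it was 0.16 for hoxd3a. hoxd4a had -0.087, with an interval from -1.11 to 0.93. Groups overlapped for all 7 hoxd entries.

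**Figure D3:**
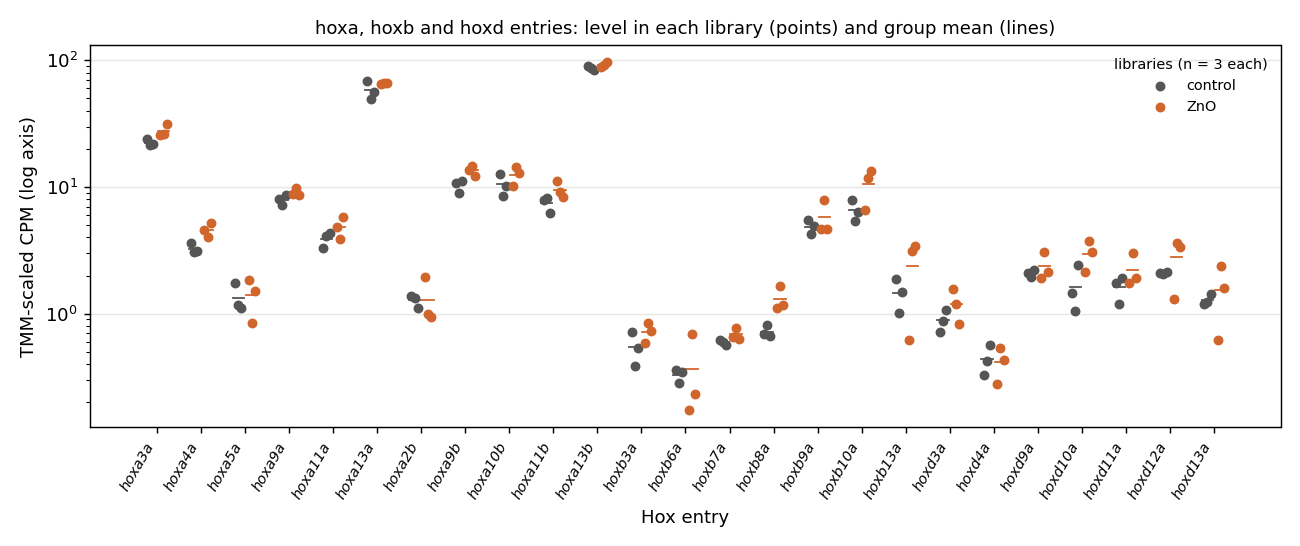
TMM-scaled CPM on a log axis for the 25 tested hoxa, hoxb and hoxd entries, with a point for each library (3 controls in grey, 3 ZnO in orange) and a line at each group mean. hoxa13b and hoxa13a show close groups, and the ZnO points of hoxb13a, hoxd12a and hoxd13a spread to both sides of the controls.

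By paralogue number, the median log2 fold change was 0.24 over the 5 entries of group 9, 0.57 over 4 of group 10, 0.39 over 5 of group 11, 0.54 over 3 of group 12 and 0.22 over 6 of group 13. These medians were not tested against each other and members cross them, with hoxb13a of group 13 at 0.71 and hoxa10b of group 10 at 0.24. As a share of Hox counts, which does not depend on scaling, group 13 took 56.5% ± 1.55 in controls and 52.3% ± 1.62 in ZnO (SD, n = 3 each). The share was lower in each ZnO library (50.9% to 54.1%) than in each control (55.1% to 58.1%). Group 11 took 8.47% ± 0.529 in controls and 9.74% ± 0.514 in ZnO, without overlap in the other direction. Group 12 took 9.38% ± 0.622 in controls and 11.1% ± 1.50 in ZnO and group 10 8.53% ± 0.635 in controls and 9.51% ± 1.14 in ZnO, both with overlap. Group 1, with few counts and 0 tested entries, took a lower share in each ZnO library (0.0410% to 0.0653%) than in each control (0.125% to 0.133%). It averaged 0.573 CPM in controls, of which hoxa1a, singled out above, held 0.460. The lower share of group 1 is therefore largely that of hoxa1a. Shares of all paralogue groups other than 1, 11 and 13 overlapped. Differences in share were not tested. For levels, 11.3% of all tested entries had all ZnO libraries above all controls and 11.2% below. Shares sum to the whole, so a higher share of some groups lowers that of others. Within groups 9 to 13, hoxc had a median of 0.43 over 8 entries and the other clusters 0.31 over 15. Summed levels of these were 197 ± 8.02 CPM in controls and 260.4 ± 37.9 in ZnO for hoxc and 207 ± 16.4 CPM in controls and 238 ± 14.5 in ZnO for the others, and only the hoxc sums did not overlap between groups.

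**Figure D4:**
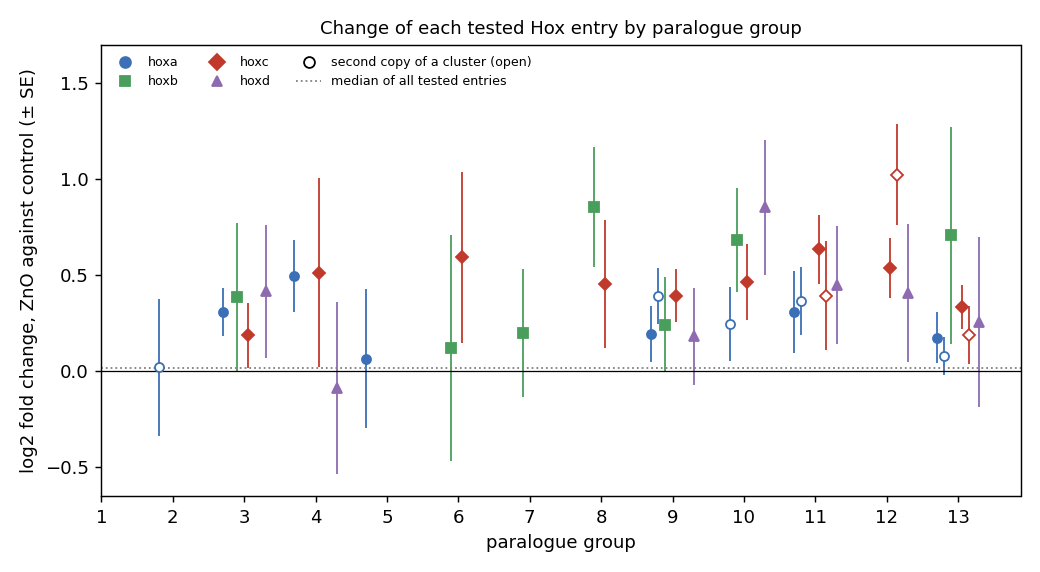
Log2 fold change of ZnO against control with its SE for the 37 tested Hox entries, by paralogue group, with colour and marker for the cluster letter and open markers for the second cluster copy. The dotted line is the median of all 25962 tested entries (0.015), and 36 of 37 markers lie above 0.

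The 3 ZnO libraries were not alike in their Hox levels. ZnO 1 was the lowest of the ZnO libraries for 18 of the 23 tested entries of groups 9 to 13, including all 8 of hoxc and 7 of the 8 of hoxb and hoxd. It was the lowest of all 6 libraries for 4 of the 23. ZnO 2 was the highest of all 6 for 13 of the 23 and ZnO 3 for 8. In groups 1 to 8 the order differed: ZnO 1 was the highest of all 6 for 6 of 14 entries, ZnO 2 for 4 and ZnO 3 for 3. Control 2 was the lowest library for 15 of all 37 entries.

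Cell type markers also differed between these libraries, and their part in the Hox levels was not tested. The 11 neutrophil and macrophage markers, all with negative log2 fold changes, summed to 1035 to 1235 CPM in controls and 499 to 735 in ZnO. ZnO 1 held the highest sum of its group. The 8 erythrocyte markers summed to 106, 24.3 and 139 CPM in the controls and to 135, 367 and 318 with ZnO, with all 8 positive and ZnO 1 lowest of its group. The 8 osteoblast markers, all positive, had a median log2 fold change of 0.30 and summed to 5156 to 7915 CPM in controls and 7051 to 8586 in ZnO. The 12 fin mesenchyme markers had a median of -0.062 with 6 positive, and summed to 7198 to 9627 and 5366 to 7755 CPM. The 10 epidermis markers had a median of 0.13 with 6 positive, and summed to 16347 to 24407 and 24361 to 29099 CPM. Few genes made up most of these sums: col10a1a for osteoblasts, col1a2 for mesenchyme, krt91 and krt5 for epidermis, and hbaa1 and hbba1 for erythrocytes. The sums are therefore not amounts of a cell type. Endothelial markers, 7 tested, had a median of 0.19 with 5 positive and sums of 93.0 to 113 and 113 to 132 CPM, and nerve and glia markers, 6 tested, -0.088 with 3 positive and sums of 12.5 to 16.2 and 12.1 to 20.1 CPM. Past the edgeR threshold were coro1a and csf3r, both lower and of the leukocyte list, and no member of the other cell type lists. DESeq2 called 5 leukocyte markers and the mesenchyme marker tncb lower. It called higher the osteoblast markers bglap and entpd5a, the erythrocyte markers alas2 and slc4a1a and the epidermis marker krt1-19e. Over all tested entries 52% were positive, with a median of 0.015, and edgeR called 0.331% lower. DESeq2 called 4.67% of the entries to which it gave an adjusted p, and 1.65% of them higher.

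**Figure D5:**
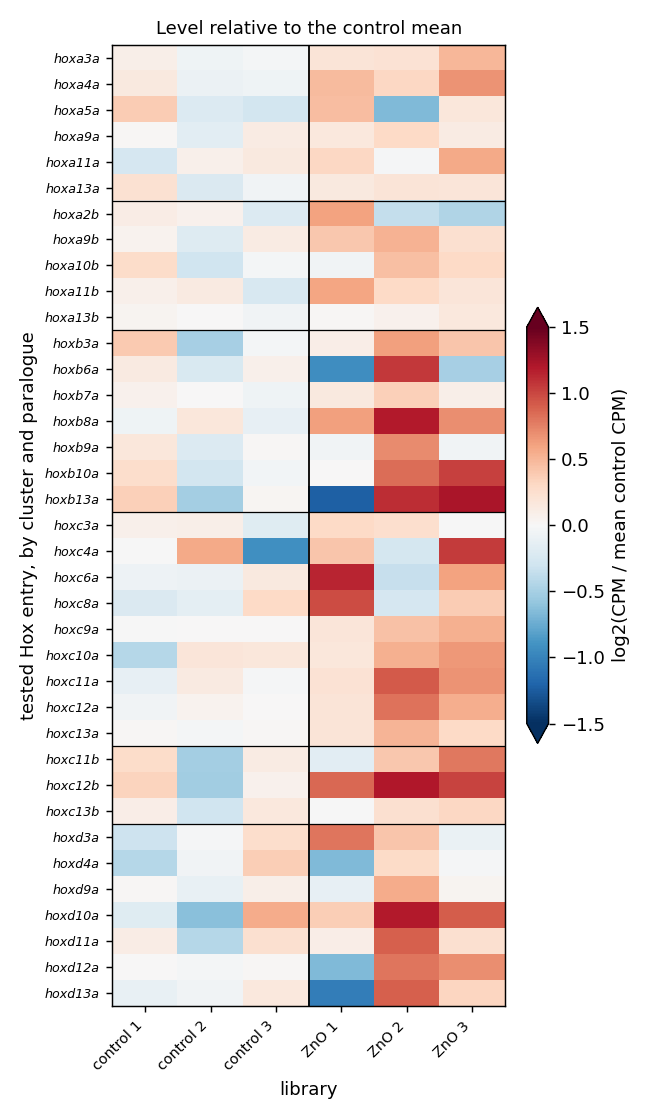
Heat map of log2(CPM / mean control CPM) for the 37 tested Hox entries (rows, by cluster and paralogue number) in the 6 libraries (columns), with lines between clusters. ZnO 2 and ZnO 3 are redder than ZnO 1 at hoxb10a, hoxb13a, hoxc9a to hoxc13a, hoxc12b, hoxd10a and hoxd12a, by little for ZnO 3 at hoxc13a. ZnO 1 is pale at hoxc9a to hoxc13a, red at hoxc12b and blue at hoxb13a, hoxd12a and hoxd13a.

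Genes of the proteins that bind DNA with Hox had positive log2 fold changes as well, and 0 of 12 tested passed the edgeR threshold over all entries. All 12 were above 0, with a median of 0.30, and 4 were higher at an unadjusted edgeR p under 0.05. Over all tested entries 52% were above 0 and 7.72% higher at that level. pbx1a was at 5.48, 6.87 and 6.89 CPM in the controls against 9.01, 10.5 and 9.93 with ZnO (log2 fold change 0.61 ± 0.16, SE; edgeR adjusted p = 0.133; DESeq2 adjusted p = 0.0465). pbx3b was at 0.525, 0.599 and 0.632 CPM in the controls against 1.04, 1.38 and 1.30 with ZnO (log2 fold change 1.08 ± 0.31, SE; edgeR adjusted p = 0.162). meis1b was at 29.7, 39.7 and 43.2 CPM in the controls against 46.8, 57.5 and 60.9 with ZnO (log2 fold change 0.55 ± 0.17, SE; edgeR adjusted p = 0.174). pbx2 was at 47.9, 56.4 and 57.0 CPM in the controls against 61.8, 68.4 and 68.5 with ZnO (log2 fold change 0.30 ± 0.11, SE; edgeR adjusted p = 0.256). Groups did not overlap for any of these 4, which follows in part from naming the members of smallest p. Over all tested entries, 11.3% had all ZnO libraries above all controls.

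Polycomb and trithorax genes, whose products hold Hox clusters silent or active, had a median of 0.030 over 37 tested. Of these 19 were positive and 0 past the edgeR threshold. Over all tested entries 52% were positive, with a median of 0.015, and edgeR called 0.428%. cbx7a, a Polycomb subunit that reads a repressive histone mark, was at 20.2, 30.7 and 23.5 CPM in the controls against 13.6, 9.54 and 9.02 with ZnO (log2 fold change -1.21 ± 0.21, SE; edgeR adjusted p = 0.0625; DESeq2 adjusted p = 3.82e-05). Each ZnO library was below each control. jarid2a stood at 33.9 ± 6.47 and 46.1 ± 4.98 CPM, phc2a at 20.2 ± 0.385 and 24.8 ± 1.97 CPM and the histone demethylase gene kdm6bb at 206 ± 25.7 and 254 ± 16.9 CPM (SD, n = 3 each), with log2 fold changes of 0.44, 0.29 and 0.30. Their edgeR adjusted p were 0.236, 0.256 and 0.305. These genes and cbx7a were named for their small p. DESeq2 called 1 member of the list, cbx7a, where it called 4.67% of the entries to which it gave an adjusted p.

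Retinoic acid, made by aldh1a enzymes and broken down by cyp26 enzymes, controls Hox genes in embryos. Of 22 tested genes of its synthesis, breakdown and receptors, 0 passed by edgeR and 17 were positive (median 0.18). Over all tested entries 0.428% passed by edgeR and 52% were positive (median 0.015). The synthesis gene aldh1a3 was at 18.8, 24.9 and 15.9 CPM in the controls against 39.2, 41.7 and 33.8 with ZnO (log2 fold change 0.95 ± 0.18, SE; edgeR adjusted p = 0.0664; DESeq2 adjusted p = 4.08e-04). The breakdown gene cyp26c1 was at 17.8, 16.6 and 11.0 CPM in the controls against 9.74, 9.73 and 7.45 with ZnO (log2 fold change -0.75 ± 0.21, SE; edgeR adjusted p = 0.151; DESeq2 adjusted p = 0.034). Groups did not overlap for either gene, and their directions were opposite. Both were named for their small p, and other genes of the same steps differed from them. The synthesis gene aldh1a2 was lower with ZnO (log2 fold change -0.60), also without overlap. The breakdown genes cyp26a1 and cyp26b1 had log2 fold changes of 0.025 and 0.16, with overlap. The receptor gene raraa had a log2 fold change of -0.66 and the retinol dehydrogenase gene rdh10a 0.79. Of the other receptor genes, rxraa was also negative (-0.14) and the rest were positive, up to 0.74 for rxrgb. Among 17 tested fin patterning genes 15 were positive (median 0.24) and 0 passed by edgeR. DESeq2 called lmx1bb and and3 higher, as it did 1.65% of the entries to which it gave an adjusted p. lmx1bb, which patterns the dorsal side of limbs in mouse, was at 0.131, 0.141 and 0.411 CPM in the controls against 0.381, 1.03 and 2.57 with ZnO, with a log2 fold change of 2.51 that rests on ZnO 2 and ZnO 3. The actinodin genes and3 and and2 had log2 fold changes of 1.31 and 0.44, and the transcription factor gene msx3 0.37. For and3, at 13.3, 7.64 and 6.83 CPM in the controls against 12.1, 32.9 and 23.9 with ZnO, the groups overlapped (edgeR adjusted p = 0.203). Its ZnO 1 level fell among the controls. Of a further list of 12 genes, evx and cdx genes among them, 1 was tested, evx1. This even-skipped homeobox gene, active in fin ray joints, was at 20.1 ± 2.23 CPM in controls and 20.4 ± 2.26 in ZnO (SD, n = 3 each). Its log2 fold change was 0.023, with an interval from -0.29 to 0.34.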

How the data were processed

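Poly(A) RNA of 6 fin libraries was sequenced as paired reads on an Illumina NextSeq, per the labels' protocols. From these reads the authors made and deposited a table of raw counts, with no normalization. The submitters' processing notes name the tools cutadapt, BWA, HTSeq and DESeq2 and the GRCz11 build. Tool versions, gene annotation and strand setting were not given in the sources used here, so reads of overlapping or antisense genes cannot be told apart. BWA is not splice-aware, and how spliced reads were treated is not given either.

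Entries were filtered with filterByExpr (minimum count 10), scaled by TMM and tested for ZnO against control by edgeR's quasi-likelihood test (robust fit on group alone), with Benjamini-Hochberg adjustment over 25962 entries at 0.05. Levels are TMM-scaled CPM, intervals are 95% from the same fit, and the scripts were tested on simulated data. There the test recovered 20% of entries changed 1.5-fold and 54% of those changed 2-fold. The absence of Hox entries called by edgeR therefore does not show that they were unchanged. Hox entries were counted as deposited, and all 49 symbols matched RefSeq names. The members, lists and tests were chosen with earlier results of these data known. Per-library values are given for tested hoxc entries and for Hox entries at an unadjusted p under 0.05. They are also given for the highest entry of each cluster with tested entries. Up to 4 list members of smallest p are named. Further Hox entries, further retinoic acid genes and and1 were added after their values were seen. Alternatives were DESeq2, limma-voom, other scalings and filters, summed entries, a replicate block and each library left out. DESeq2 1.42.0, edgeR 4.0.16 and limma 3.58.1 were run in R 4.3.3, and figures were drawn with matplotlib 3.10.9 in Python 3.11.15.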

Additional observations from a re-analysis of the deposited data

How the results depend on the processing

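Over all entries edgeR called 111, against 1194 by DESeq2, 405 with no filter, 32 with the replicate block and 12 to 369 with 1 library left out (12 without ZnO 3, 369 without ZnO 1). The count stayed between 76 and 103 with limma-voom, other scalings, a stricter filter and summed entries. Hox entries called were 0 in each of these fits except DESeq2, which called 1, hoxc12b. The median log2 fold change of hoxc was 0.36 to 0.51 over the 14 alternatives and that of the other Hox entries 0.16 to 0.36, both lowest to highest among fits with 1 library left out. The hoxc share of Hox counts averaged 45.6% to 47.4% in controls and 48.2% to 50.3% in ZnO with 1 library left out. Of 511 log2 fold changes of the 37 tested Hox entries under alternatives, 15 changed sign, in 7 entries with small changes. With 1 library left out, they ran over -0.20 to 0.31 for hoxa5a, -0.41 to 0.21 for hoxa2b, -0.70 to 0.45 for hoxb6a, -0.069 to 0.37 for hoxb9a, -0.32 to 0.13 for hoxd4a, -0.058 to 0.31 for hoxd9a and -0.21 to 0.62 for hoxd13a. Without ZnO 2, hoxb6a, hoxb9a, hoxd9a and hoxd13a were negative. With limma-voom hoxa2b (-0.048) and hoxb6a (-0.12) changed sign, and with the replicate block hoxa2b (-0.043) and hoxb6a (-0.035). With 1 library left out, the log2 fold change moved by over 1.5 times for 27 of the 37 entries, hoxd3a and hoxd11a among them. The cause was not tested. Libraries with the same replicate number did not deviate together (r of 0.0143, -0.049 and 0.0778), so the numbers are not taken to pair libraries. Depth limits the entries of low counts: hoxb6a, the tested Hox entry with the fewest counts, had 60 in all.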
